A study of Peromyscus maniculatus with 10 samples.

Results

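Head-to-head gene pairs are neighbours on opposite strands whose transcription starts face away from each other across a short stretch of DNA. In mammals such a stretch often serves as a promoter for both genes. Head-to-head arrangement is known to be frequent among genes that most cells use, for example in DNA repair, metabolism and mitochondrial function, and it has been asked whether partners are transcribed together or independently. Here the pairs were chosen by position alone. On each numbered chromosome the genes were sorted by start, and a pair was taken where the left gene lay on the minus strand, its right-hand neighbour lay on the plus strand, the gene spans did not overlap and the starts were 1 to 1000 bases apart. This gave 336 pairs, or 672 genes, out of 25394 genes in the count table and 23570 on the 23 numbered chromosomes (2.85%).

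The cells were primary fibroblasts grown from ear tissue of 10 male deer mice (Peromyscus maniculatus bairdii, BW stock, 3 weeks old), with 1 RNA-seq library per animal and no treatment. BW is a closed but outbred captive colony, so animals differ genetically, and each library also carries the variation of its own culture. All 10 libraries formed a single group. The study used them to correlate the chaperone BiP and several proinflammatory cytokines with the whole transcriptome. The comparison made here is the correlation of partners across animals, set beside the same measure for other neighbouring genes.

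The label of a shared promoter was not tested, because the files hold read counts and gene models only. The exonic length of 91.1% of the members (612 of 672) was a multiple of 3, against 86.1% of all genes on numbered chromosomes, so most models hold the coding sequence without untranslated ends. A start is therefore a model start, mostly a coding start, and a length is mostly a coding length. Gene symbols could be matched to none of the identifiers, so pairs are named by chromosome and model starts on build HU_Pman_2.1, the left gene first, and no gene function is given for them. The fibroblast markers could likewise not be looked up. The libraries were prepared with a directional kit but counted without a strand option, so reads of a gene reaching past the start of its partner cannot be told apart from reads of that partner. An exon of 8 members in 7 pairs overlapped an exon of another gene.

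The distance between the model starts ran from 7 to 999 bases with a median of 448.5. It was at most 200 bases in 36 pairs, between 200 and 500 in 153 and above 500 in 147. Every numbered chromosome held members. Chromosome 1 held 41 pairs and chromosome 8 held 38, while chromosomes 13 and 18 held 2 each. As a share of the genes on a chromosome, members ranged from 0.742% on chromosome 13 to 4.73% on chromosome 5. The closest pair outside the limit, on chromosome 14, had starts 1003 bases apart and levels of 13.2 ± 4.26 and 34.8 ± 2.58 RPKM (SD, n = 10). The last pair inside it, on chromosome 10, had starts 999 bases apart and levels of 8.66 ± 1.00 and 10.4 ± 0.729 RPKM. RPKM is the read count scaled by exonic length and library size, so it can be compared between genes. The other pairs next to the limit had starts 988 bases apart on chromosome 8 (88.5 and 55.5 RPKM) and 994 on chromosome 4 (36.3 and 1.72), and outside it 1013 on chromosome 21 (468 and 0.130) and 1019 on chromosome 5 (0.131 and 0.0174).

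The libraries held 20811334 to 31912526 counted reads, and every pair of libraries differed by more than sampling noise (chi-square per degree of freedom 23.0 to 336 over 45 pairs of libraries). Members took 3.67% to 3.92% of the reads of an animal, and 26.2% of the member reads belonged to the 10 most abundant members. Animals 36764 and 36789 had the lowest and the highest TMM factor, which scales library size (0.928 and 1.04). They also held the outlying value in 37 members, most often animal 36764. Several results are therefore also given without them, and what sets them apart was not tested.

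Most members were expressed in fibroblasts, usually together with their partner. A mean count of at least 10 per library was reached by 586 of 672 members (87.2%), where 56.6% of all genes on numbered chromosomes and 55.7% of the non-members reached it. Both genes reached it in 273 of 336 pairs (81.3%), where 37.7% of all adjacent pairs did. A single gene reached it in 40 pairs and neither in 23. Without a count in any library were 14 members (2.08%) and 17.7% of the other genes.

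Other close neighbours were compared in the same way. Tail-to-tail neighbours, whose ends face each other, were both expressed in 77.4% of the 345 pairs within 1000 bases, a share near that of the head-to-head pairs. Tandem neighbours on the same strand within 1000 bases were both expressed in 48.0% of 356 pairs. Head-to-head pairs with starts more than 1000 and up to 10000 bases apart were both expressed in 57.9% of 1108 pairs. Within the members, the share was 72.2% at up to 200 bases, 78.6% from there to 400, 86.5% from there to 600, 83.6% from there to 800 and 83.0% from there to 1000. Among head-to-head neighbours between 1000 and 1200 bases apart both genes were expressed in 81.0% of 42 pairs, so the share did not step at the limit of 1000 bases. In the next steps of 200 bases up to 2000 it was 84.0%, 65.6%, 77.4% and 61.3%, over 25 to 32 pairs each. Of the 586 expressed members, 546 (93.2%) had an expressed partner on the head side and 429 (73.2%) an expressed neighbour on the other side. These shares have unlike base rates. Partners are all members, of which 87.2% were expressed, while the other neighbour need not be one, and 55.7% of non-members were expressed.

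**Figure D1:**
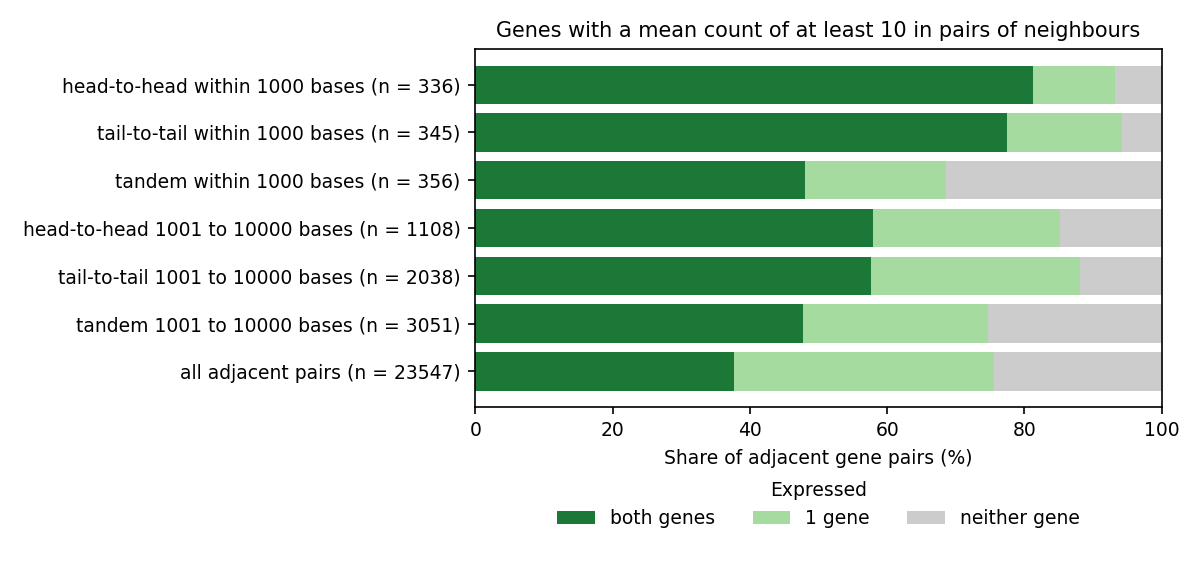
Share of adjacent gene pairs (%, x axis) in which both genes, 1 gene or neither had a mean count of at least 10, by orientation and by distance between the facing ends or starts (y axis, with the number of pairs). Both genes were expressed in 81.3% of head-to-head and 77.4% of tail-to-tail pairs within 1000 bases, and in 37.7% of all adjacent pairs.

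Expressed members had higher levels than other expressed genes. Their median was 27.3 RPKM with quartiles of 12.1 and 61.0, and that of the other genes was 17.1 with quartiles of 4.84 and 44.8. At least 10 RPKM was reached by 464 expressed members (79.2%) and by 62.7% of the others, and 17 members (2.90%) lay under 1 RPKM against 9.97% of the others. The genes of tail-to-tail pairs within 1000 bases had a median of 22.8 RPKM and those of tandem pairs within 1000 bases 16.4 RPKM. Expressed members were also more compact, with a median exonic length of 1041 bases against 1359 and a median span of 9734 bases against 16829, while both sets had a median of 8 exons. Close neighbours of other orientations had shorter spans still, with medians of 6508 bases in tail-to-tail and 3402 in tandem pairs within 1000 bases. Over all genes, expressed or not, the order of spans turned round, with a median of 8614 bases in members against 7899 in the others. The median exonic length was then 951 bases against 984. Single-exon models made up 74 of the 672 members and 22.8% of the other genes.

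The levels of partners were closer to each other than those of most neighbours but bore little relation across pairs. Expressed members also spread less in level, with log2 RPKM quartiles of 3.60 and 5.93 against 2.274 and 5.485 in the other expressed genes. The part of this narrower spread in the closeness of partners was not tested. The median difference between partners was 1.56 on the log2 RPKM scale, against 2.14 for all adjacent pairs, 2.09 for tail-to-tail and 1.14 for tandem pairs within 1000 bases. Partners lay within 2-fold of each other in 94 of 273 pairs (34.4%; all adjacent pairs 26.4%) and differed by more than 8-fold in 71 (26.0%; 37.0%). The difference was over 32-fold in 23 of the 273 pairs and in 1438 of all 8868 adjacent pairs. Across the 273 pairs, the log2 RPKM of the left and the right gene had a Pearson's R of 0.0901, a description over pairs that share the same libraries. The same partner was the higher per length in all 10 animals in 227 pairs (83.2%), and this share was 83.4% over all adjacent pairs.

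**Figure D2:**
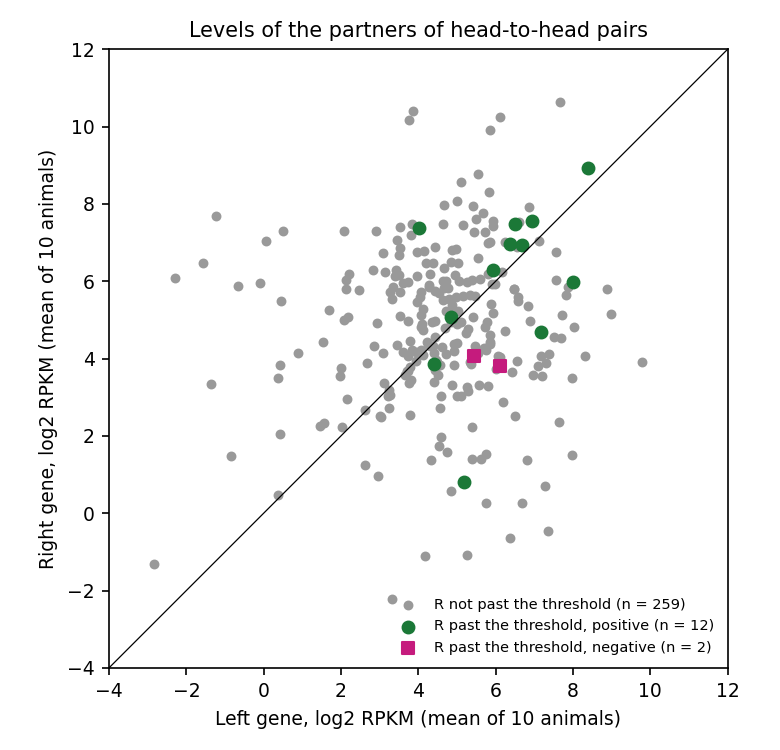
Mean level of the left gene (x axis) and of the right gene (y axis) in log2 RPKM for the 273 head-to-head pairs with both genes expressed. Points lie on either side of the line of equal levels, and the 14 pairs past the correlation threshold, 12 positive and 2 negative, are coloured.

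Among pairs with a mean of at least 100 counts in both genes, the 3 with the highest summed level per length were unequal. On chromosome 22 (starts 7292852 and 7293012), the left gene stood at 204 ± 12.01 RPKM and the right gene at 1583 ± 130 RPKM (SD, n = 10). On chromosome 21 (3865313 and 3865788), the values were 14.6 ± 1.16 and 1355 ± 95.1 RPKM. On chromosome 7 (39048012 and 39048474), they were 68.7 ± 6.91 and 1206 ± 99.0 RPKM. In each of these pairs the right gene was the higher in all 10 animals. Their partner correlations were -0.0202, -0.148 and -0.630, with adjusted p of 0.986, 0.865 and 0.260 by the exact permutation test described with the correlations, so none passed. The first 2 were positive under some other settings of the processing.

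The largest differences between expressed partners were far above 32-fold. On chromosome 8 (57366619 and 57367427), a left gene with a single exon had 0.427 ± 0.0722 RPKM and its partner 207 ± 11.9 RPKM. In CPM, the read count scaled by library size alone, the left gene ran from 1.009 to 1.64 and the right gene from 71.7 to 84.7, so the ranges did not approach each other. On chromosome 5 (33598591 and 33598809), the levels were 0.205 ± 0.0630 and 68.3 ± 7.00 RPKM, the lower one resting on 7 to 14 reads per library. On chromosome 2 (134059348 and 134059922), they were 0.334 ± 0.137 and 88.3 ± 7.25 RPKM.

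In 40 pairs a single partner reached the minimum of 10 counts, at a median mean count of 310 and up to 36039. The other partner had a mean of 1 to 10 counts in 29 of them and under 1 count in 11, with no count in any library in 4. In the pair with the most abundant expressed gene, on chromosome 8 (12773531 and 12774020), the right gene had 31952 to 40774 reads per library and the left gene 5 to 13. On chromosome 1 (141509372 and 141510087) the left gene had 5036 to 9100 reads and the right gene 1 to 10. On chromosome 4 (23173984 and 23174733) the left gene had 912 to 3754 reads and the right gene 0 to 5. The models below the minimum in these pairs were single exons of 127, 70 and 131 bases. Per length they stood at 2.30 ± 0.747, 3.47 ± 1.28 and 0.470 ± 0.481 RPKM (SD, n = 10), and the mean of each was above that of the longer chromosome 5 gene, 0.205 RPKM, which reached the minimum. Models under 200 bases occurred in 25 pairs in all, of which 10 had a single expressed gene and 8 had none.

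The 3 closest pairs were weakly expressed. The starts on chromosome 12 (3520895 and 3520902) were 7 bases apart, and the genes had means of 7.60 and 6.60 counts. Those on chromosome 17 (26025981 and 26025998) were 17 bases apart, with 0.555 ± 0.120 and 2.78 ± 0.744 RPKM. Those on chromosome 14 (78622560 and 78622629) were 69 bases apart, and both single-exon models of 80 bases had at most 1 count in any library.

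Variation between animals was lower in members than in other genes. The biological coefficient of variation estimates the spread between animals beyond counting noise. Each gene's estimate is moderated toward genes of similar abundance, so it can exceed the observed spread of a steady gene. For the left gene on chromosome 22 (7292852) it was 10.7%, where the CPM had a coefficient of variation of 5.88%. The biological coefficient had a median of 14.4% over expressed members and 19.4% over the other expressed genes. Because it falls with abundance, it was also compared in bands of mean count. From 10 to 100 counts the medians were 31.5% (58 members) and 39.6%. From 100 to 1000 they were 15.6% (286 members) and 19.4%. From 1000 counts they were 12.5% (242 members) and 13.5%. Genes in head-to-head pairs with starts more than 1000 and up to 10000 bases apart had 33.6%, 16.5% and 12.6% in the same bands, and genes of tail-to-tail pairs within 1000 bases 32.7%, 16.9% and 13.02%, values close to those of the members. Without animals 36764 and 36789 the overall medians were 12.4% for members and 16.1% for the other genes.

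**Figure D3:**
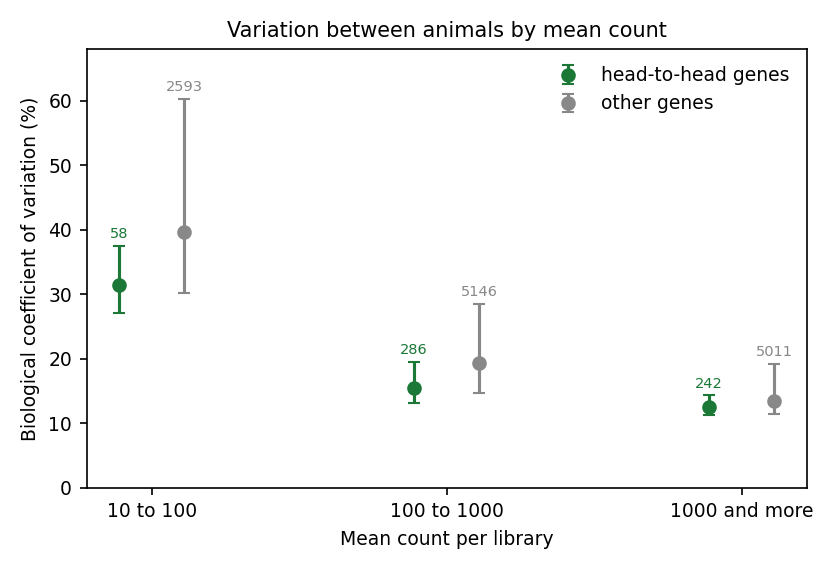
Biological coefficient of variation (%, y axis) by mean count per library (x axis) for expressed head-to-head genes and for other expressed genes on numbered chromosomes. Points are medians, bars run between the quartiles and numbers count genes. The member median is the lower in each band, from 31.5% against 39.6% at the left to 12.5% against 13.5% at the right.

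A single animal that stood clear of the other 9 by Dixon's gap ratio was found in 49 of 586 expressed members (8.36%), where 9.75% of expressed genes on numbered chromosomes had one. Animal 36764 was the high one in 11 of these genes and the low one in 21, and animal 36789 was the high one in 5. Among the 273 pairs with both genes expressed, 45 (16.5%) had such an animal in exactly 1 partner, where 16.8% of all adjacent pairs had. In a single pair, on chromosome 4 with starts 339 bases apart, both genes were low in animal 36764 (R = 0.862), and the same animal was outlying in both genes in the same direction in 0.462% of all adjacent pairs.

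The correlation of partners across animals lay near that of other neighbouring genes. Pearson's R between the log2 CPM of partners over the 10 animals had a median of 0.134 with quartiles of -0.175 and 0.423, and all 8868 adjacent pairs with both genes expressed had a median of 0.143. R was positive in 176 of 273 pairs (64.5%; all adjacent pairs 60.5%). Without animals 36764 and 36789 the order of these shares turned round, to 55.3% of the member pairs and 58.4% of all adjacent pairs. The member median was the lower with all animals and without these, when the medians were 0.0937 and 0.126. Other settings gave either order, such as 0.143 against 0.136 with at least 100 counts and 0.129 against 0.142 with DESeq2 size factors. With the two-sided exact permutation test over all orderings of the animals and Benjamini-Hochberg adjustment over the 8868 pairs, 14 of 273 pairs (5.13%) passed an adjusted p of 0.05, and the background was 5.41%. Of these, 12 were positive, against a background of 4.66% of pairs, and 2 were negative, against 0.756%. An unadjusted p under 0.05 was reached by 47 pairs (17.2%), with a background of 20.2%. The share of pairs past the threshold was thus near the background in each count. R of at least 0.5 occurred in 54 pairs (19.8%; 23.9%) and of at most -0.5 in 22 (8.06%; 9.92%). Spearman's rho had a median of 0.0788 over members and 0.115 over all adjacent pairs.

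Over all abundances, close pairs of the other orientations had a higher median R and a larger share past the threshold than the members. Tail-to-tail pairs within 1000 bases had a median R of 0.171, with 5.99% past the threshold, and tandem pairs within 1000 bases 0.317, with 11.7%. Head-to-head pairs beyond 1000 and up to 10000 bases apart had a median of 0.166, with 3.58%. The whole-transcriptome coordination, which correlates the R values of both partners with all other expressed genes, had a median of 0.188 for members and for all adjacent pairs. Without animals 36764 and 36789 the medians were 0.0794 and 0.160.

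**Figure D4:**
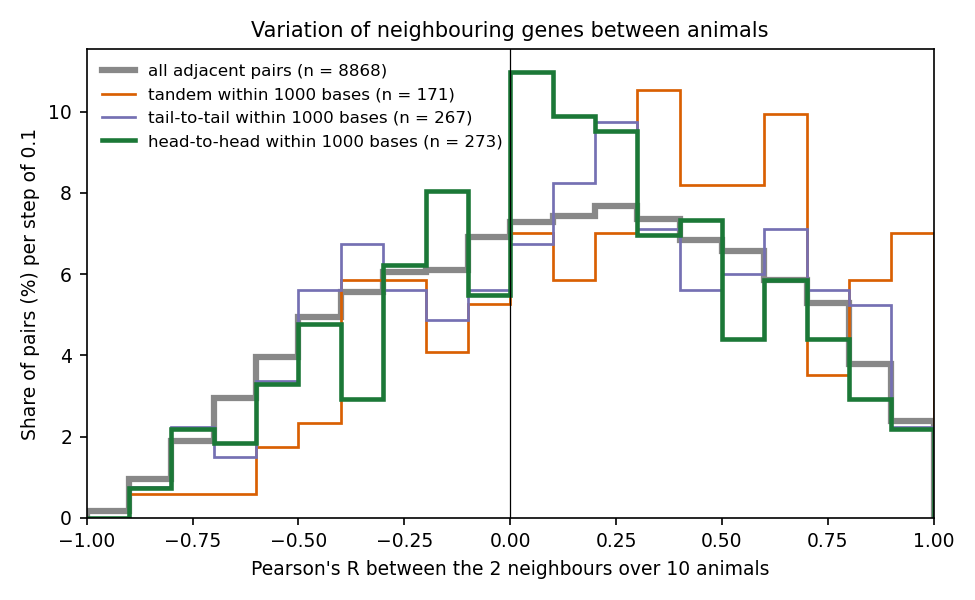
Distribution of Pearson's R between neighbouring genes over 10 animals (x axis) as the share of pairs per step of 0.1 (%, y axis), for head-to-head, tail-to-tail and tandem pairs within 1000 bases and for all adjacent pairs. The head-to-head median of 0.134 lies beside that of all adjacent pairs (0.143), and the tandem pairs have more values to the right.

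Partner R had its highest median among the most abundant pairs and differed little between distances. Where the less abundant partner had 10 to 100 counts, the median R was 0.0861 and 1 of 43 pairs (2.33%) passed, where 4.45% of all adjacent pairs in that band did. From 100 to 1000 counts it was 0.115 and 7 of 177 pairs (3.96%) passed, where 5.68% did. From 1000 counts it was 0.242 and 6 of 53 pairs (11.3%) passed, where 6.52% did. The median R of all adjacent pairs was 0.155, 0.140 and 0.127 in these bands. Tail-to-tail pairs within 1000 bases had medians of 0.120, 0.171 and 0.236, with 2.50%, 7.30% and 8.00% past the threshold. Tandem pairs within 1000 bases had medians of 0.300, 0.393 and 0.0325, the last over 14 pairs, and head-to-head pairs beyond 1000 and up to 10000 bases apart 0.166, 0.164 and 0.169. By distance, the median R was 0.116 at up to 200 bases (2 of 26 pairs passed), 0.139 between 200 and 500 (3 of 123) and 0.128 above 500 (9 of 124). Over the 273 pairs, R and the log10 of the distance had a Pearson's R of -0.0171, as a description over pairs from the same libraries.

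In R, the partner stood near the neighbour on the other side, while in level it was closer. Over 402 relations between a member of the 273 pairs with both genes expressed and its expressed far-side neighbour, R had a median of 0.110 and the difference of levels a median of 2.15 on the log2 RPKM scale, against 0.134 and 1.56 between partners. In the 146 pairs with both far-side neighbours expressed, the partner R was the highest of the 3 in 53 pairs (36.3%) and the lowest in 49 (33.6%). The difference of levels was the smallest between partners in 60 of them (41.1%). Partners are both members, whose levels spread less than those of other genes, while far-side neighbours need not be members. The part of this in the closer levels was not tested.

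The 14 pairs past the threshold lay on 10 chromosomes with starts 163 to 905 bases apart. Their genes were more variable and more abundant than those of the other tested members, with a median SD of log2 CPM of 0.299 against 0.149 and a median level of 74.0 RPKM against 27.3. Animal 36764 or 36789 held the highest or the lowest value in 21 of their 28 genes, and in 300 of 518 genes of the other tested pairs. Without these animals 3 pairs passed, 2 of them among the 14, and the background was then 1.11%. The part of these animals in the calls was not tested beyond this.

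The highest R was found on chromosome 4, between ENSPEMG00000029696 (left start 99279031) and ENSPEMG00000030290 (right start 99279733), 702 bases apart. The right gene model held 6 exons with 396 exonic bases between 99279733 and 99280143, so the gaps between its exons were only a few bases long. Whether this model is a separate functional gene was not tested. The left gene had 32.7 CPM in animal 36798, 71.3 in 36797, 72.9 in 36907, 86.4 in 36772, 110 in 36787, 111 in 36905, 122 in 36906, 150 in 36746, 162 in 36789 and 396 in 36764. The right gene, in the same order of animals, had 2.66, 5.53, 5.80, 6.70, 8.56, 7.86, 9.20, 11.2, 13.6 and 30.8 CPM. Both genes were lowest in 36798 and highest in 36764, and the ranges spanned 12.1-fold and 11.6-fold. R was 0.997 and rho 0.988 (exact permutation p = 5.51e-07 and 5.51e-06, adjusted p = 0.000611 and 0.00288 over 8868 pairs). When the values of 36764 and 36798, which lay farthest from the median of the left gene, were left out, R was 0.987. The reads of the right gene amounted to 7.07% to 8.39% of those of the left gene in every animal, so the ratio was nearly constant. Counting ignored the strand, and the part of this in the near-constant ratio was not tested.

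On chromosome 1 (140214563 and 140215293, 730 bases), the left gene ran from 12.98 to 31.6 CPM with a median of 15.9 and the right gene from 5.35 to 24.5 with a median of 8.00. Animal 36772 was the highest in both, and 36798, 36907 and 36764 followed it in both in differing order. R was 0.955 and rho 0.842 (exact permutation p = 0.000273 and 0.00371, adjusted p = 0.0130 and 0.0805). Without the 2 animals farthest from the median, R was 0.916.

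On chromosome 6 (67080578 and 67081483, 905 bases), the left gene ran from 64.0 to 88.3 CPM and the right gene from 114 to 376, so the right gene varied 3.31-fold and the left 1.38-fold. Both were lowest in animal 36764. R was 0.944 and rho 0.903 (exact permutation adjusted p = 0.00658 and 0.0333), and R was 0.953 without the 2 animals farthest from the median. On chromosome 3 (6701386 and 6701658, 272 bases), the left gene ran from 86.0 to 156 CPM and the right gene from 154 to 570, and animals 36764 and 36789 were the lowest in both. R was 0.921 and rho 0.915 (exact permutation adjusted p = 0.00886 and 0.0267). Without those animals R was 0.763, and with the first principal component of all expressed genes removed it was 0.0787. With that component removed, R was 0.656 for the chromosome 6 pair and 0.982 for the chromosome 4 pair. On chromosome 7 (30796641 and 30797036, 395 bases), the left gene ran from 20.5 to 28.2 CPM and the right gene from 288 to 374. R was 0.908 and rho 0.733 (exact permutation adjusted p = 0.0304 and 0.185), and the ratio of the partners stayed within 1240% to 1466%.

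The lowest R was found on chromosome 1 between ENSPEMG00000013919 (left start 139386217) and ENSPEMG00000027464 (right start 139386923), 706 bases apart. The left gene had 31.0 CPM in animal 36746, 31.1 in 36787, 34.3 in 36906, 37.0 in 36905, 38.8 in 36797, 40.8 in 36789, 44.3 in 36907, 45.2 in 36772, 51.1 in 36764 and 53.2 in 36798. The right gene, in the same order, had 17.6, 18.2, 15.9, 15.6, 10.6, 13.5, 9.41, 8.69, 5.595 and 10.2 CPM. The 4 animals lowest for the left gene were the 4 highest for the right gene. R was -0.867 and rho -0.903 (exact permutation p = 0.00109 and 0.000807, adjusted p = 0.0299 and 0.0333), and R was -0.943 without the 2 animals farthest from the median. The pair passed in 7 of 21 settings of the processing, the one reported included, with R from -0.944 to -0.812 and adjusted p from 0.0122 to 0.221 by the exact permutation test. On chromosome 7 (99204894 and 99205689, 795 bases), the left gene ran from 72.9 to 111 CPM and the right gene from 14.9 to 29.2. Animal 36764 was the highest for the left gene and the lowest for the right gene. R was -0.837 and rho -0.758 (exact permutation adjusted p = 0.0478 and 0.159), and R was -0.846 without animals 36764 and 36789.

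The other low values did not pass. R was -0.784 on chromosome 17 (1053330), -0.769 on chromosome 23 (45004019) and -0.749 on chromosome 2 (134852689), with exact permutation adjusted p of 0.0934, 0.0910 and 0.119. Without the 2 animals farthest from the median these R values were -0.502, -0.363 and -0.580. Their genes varied by 1.29-fold to 2.02-fold between the extreme animals.

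**Figure D5:**
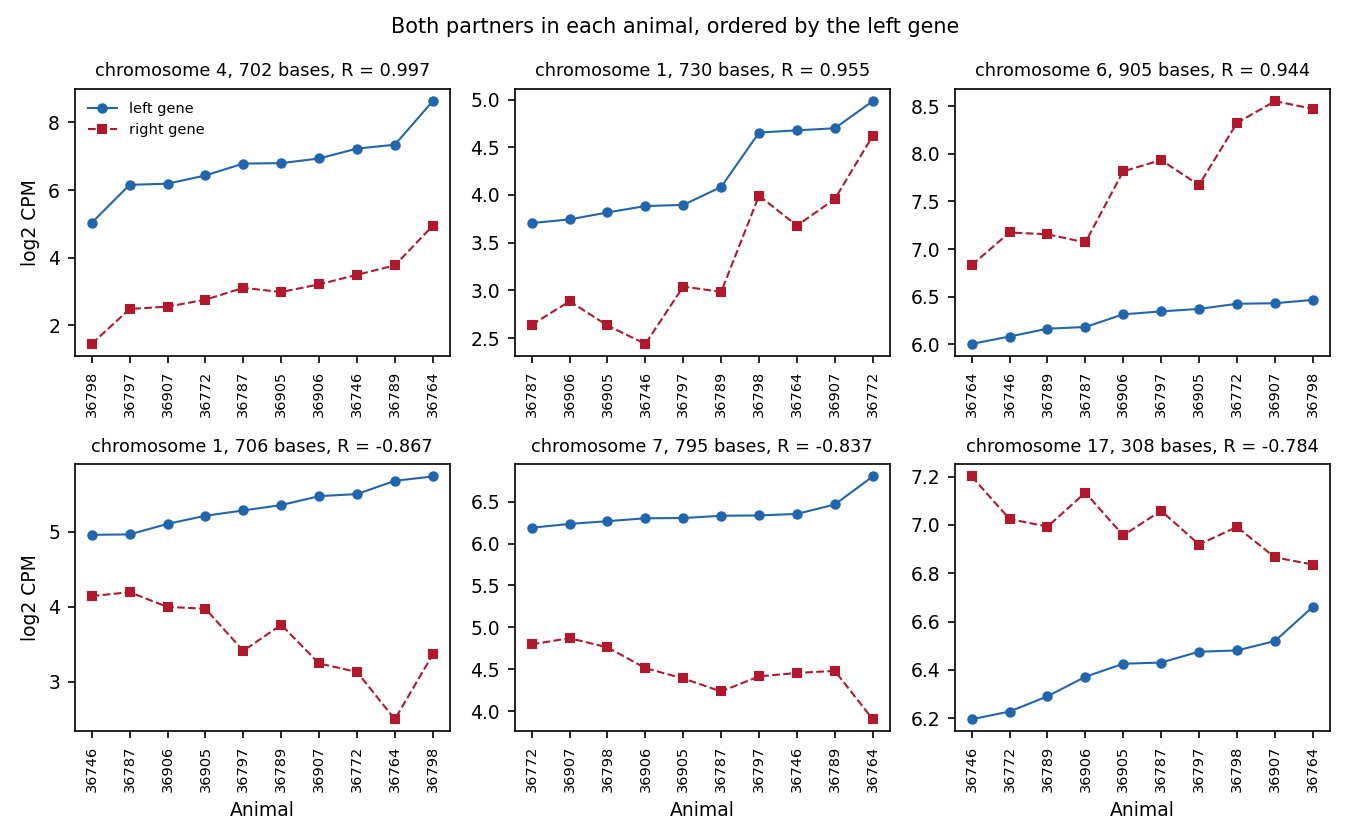
Level of both partners in log2 CPM (y axis) in each of the 10 animals (x axis, ordered by the left gene) for the 3 pairs with the highest and the 3 with the lowest R among pairs with a mean of at least 100 counts per gene. Partners rise together in the upper row (R from 0.944 to 0.997) and run in opposite directions in the lower row (R from -0.867 to -0.784).

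The remaining 7 pairs past the threshold were positive. The most abundant by counts, on chromosome 17 (57253186 and 57254044, 858 bases), held genes of 47 and 52 exons with exonic lengths of 5124 and 5004 bases. Its left gene ran from 1237 to 2472 CPM and its right gene from 1703 to 4047 CPM, both highest in animal 36764 and next highest in 36772. R was 0.876 and rho 0.758 (exact permutation adjusted p = 0.0277 and 0.159), and R was 0.664 without the 2 animals farthest from the median. On chromosome 1 (140128509 and 140129062, 553 bases) R was 0.903 with an adjusted p of 0.00310, and on chromosome 12 (22564176) it was 0.888 with an adjusted p of 0.0313, both by the exact permutation test. On chromosome 8 (103912079) R was 0.832 with an exact permutation adjusted p of 0.0106, the right gene having 22 to 72 reads per library, and rho was 0.867 with an adjusted p of 0.0581. On chromosomes 7 (45580515), 2 (61872426) and 21 (3563151), R was 0.859, 0.849 and 0.841, with exact permutation adjusted p of 0.0464, 0.0467 and 0.0494. Their rho was 0.855, 0.818 and 0.770, with exact permutation adjusted p of 0.0694, 0.103 and 0.149, so these 3 and the chromosome 8 pair did not pass by rho. In this group of 3, R fell to 0.678, 0.652 and 0.543 without the 2 animals farthest from the median.

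Over 21 settings of the processing, the one reported included, the 14 pairs differed in how often they passed. The pairs on chromosome 4 and on chromosome 1 at 140128509 passed in 20, those on chromosomes 6 and 3 in 18, and those on chromosome 1 at 140214563 and on chromosome 8 in 17. The pairs on chromosomes 12 and 17 passed in 11, both positive pairs on chromosome 7 in 7, the negative pair on chromosome 7 in 6, that on chromosome 2 in 5 and that on chromosome 21 in 4.

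In 11 of the 14 pairs the same partner was the higher per length in all 10 animals, a share near the 83.2% of all tested members and the 83.4% of all adjacent pairs. Both partners had the same highest animal in 6 pairs and the same lowest animal in 5. Over all tested members, the SD of the log2 ratio of the partners was smaller than the SD of either partner in 23 of 273 pairs (8.43%), and this share was 7.48% over all adjacent pairs.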

How the data were processed

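Total RNA of 10 fibroblast cultures was sequenced (paired reads of a directional library), aligned by the authors with STAR 2.7.2b to HU_Pman_2.1 and counted with featureCounts of Subread 1.5.3 on the Ensembl release 98 annotation, with uniquely mapped reads and no strand option in the file header. The submitters' processing notes also name FastQC 0.11.5, Trim Galore 0.4.5 and SAMtools 1.5. The deposited values were raw gene counts, and 0 columns were left unassigned.

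From these counts, log2 CPM (TMM factors, prior count 2) and the tagwise biological coefficient of variation were computed with edgeR 4.0.16 in R 4.3.3, and RPKM with the deposited exonic lengths. Expressed means a mean count of at least 10. Pearson's R between neighbours over 10 animals was tested two-sided against all 3628800 orderings (numpy 2.4.6, numba 0.67.0, Python 3.11.15), with Benjamini-Hochberg adjustment over 8868 adjacent pairs; p-values measure the spread between these animals and cultures. On simulated counts over these 8868 pairs, 1 of 50 pairs with a shared log2 factor of SD 0.25 was called. The calls were 8 of 50 with SD 0.5, 27 of 50 with SD 1 and 45 of 50 with SD 2. Of the unchanged pairs, 5.08% had an unadjusted p under 0.05. Apart from the shared factor, genes were simulated independently, and unchanged pairs had a median R of -0.000956. The measured adjacent pairs had a median R of 0.143, and 20.2% had an unadjusted p under 0.05. The simulated rates therefore do not carry over to the reported calls.

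Pairs were named by rule: with means of at least 100 counts, the 5 highest and 5 lowest R and the 3 highest summed RPKM; the 3 largest level differences; the 3 most abundant genes with a partner under 10 counts; the 3 closest pairs; and 3 on each side of 1000 bases. Pairs past the threshold were added. The members, lists and rules were chosen with earlier results of these data known. Lists of known head-to-head pairs and of cell markers were not run, since 0 identifiers matched a symbol among 37364 RefSeq genes. Alternatives covered DESeq2 1.42.0 size factors, filters, prior counts, rank correlation, removal of components, distance limits and leaving out animals.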

Additional observations from a re-analysis of the deposited data

Results flagged for a closer look

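Dixon's gap ratio, which chance passes in about 1 of 20 groups, passed the critical value for 10 samples for 4 genes of the named pairs among those with a mean of at least 10 counts. The same value was passed by 9.75% of expressed genes on numbered chromosomes. The ratio was 0.545 for the left gene on chromosome 7 (99204894), high in animal 36764. It was 0.478 for the right gene on chromosome 8 (54869265) and 0.600 for the left gene on chromosome 8 (103912079), both low in animal 36764. It was 0.666 for the left gene on chromosome 4 (94029989), low in animal 36746, and the R of that pair was 0.483 with all animals and 0.135 without this one. The number of members in which an animal was the outlying high or low one was itself outlying for animal 36764, with ratios of 0.546 and 0.857.

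Outside the numbered chromosomes, 8 head-to-head pairs within 1000 bases lay on X, and both genes were expressed in 5 of them, with R from -0.135 to 0.753 and a median of 0.124. On unplaced scaffolds 2 of 2 such pairs were expressed, with R of -0.574 and -0.259.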

How the results depend on the processing

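The count of 14 pairs past the threshold depended on the processing. It was 6 without a filter on low counts (all adjacent pairs 1.87%), 7 with Spearman's rho (3.35%), 8 with the first principal component removed (2.53%), 7 with animals centred within the 2 series of animal numbers (3.23%), 3 without animals 36764 and 36789 (1.11%), 5 of the pairs within 500 bases, 2 of those within 200 bases and 0 with the 7 animals of the first series, where no adjacent pair passed. The background was 5.41% in the reported setting, and it was lower in each of these settings except the distance limits, which do not change it. Leaving out 1 animal gave 6 to 11, with a background of 2.85% to 4.61%. The cause was not tested, except that fewer animals or pairs entered several of these. The median R of 0.134 became 0.206 with library sizes in place of TMM factors, which moved that of all adjacent pairs from 0.143 to 0.204, and 0.0822 to 0.154 without 1 animal. The positive share was 55.3% without animals 36764 and 36789 (all adjacent pairs 58.4%) and 57.9% to 65.6% without 1 animal, and coordination 0.0794 and 0.131 to 0.217. Expressed members numbered 319 within 500 bases and 58 within 200, with both expressed in 149 and 26 pairs. The median level of 4.77 log2 RPKM was 4.94 with at least 100 counts and 4.61 within 200 bases. Variation was 12.4% without both animals and 13.4% to 15.3% without 1 animal. Members with an outlying animal numbered 24 with the first component removed, against a background of 5.30%.

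For the 14 pairs that passed, 154 of 280 values of R under alternatives still passed and 126 (45.0%) did not, with none of another sign. The values that did not pass include all those from the 7 animals of the first series, where no adjacent pair passed. Alternatives were counted for 20 named pairs, these 14 and others named for the lowest R or the highest summed level. Among these others 2 values passed newly and 13 changed sign. All 13 belonged to pairs that never passed. Named pairs outside the 20 were not counted. Some of them also changed sign, such as that on chromosome 5 (33598591), with R of -0.255 and rho of 0.0182. On chromosome 22 (7292852), R was 0.294 with library sizes, 0.127 as rho, 0.483 with the first component removed, 0.0681 in the first series and -0.120 to 0.108 without 1 animal. On chromosome 21 (3865313), it was 0.146 with library sizes, 0.00606 as rho, 0.304 with depth regressed out, 0.208 without animals 36764 and 36789 and -0.426 to 0.241 without 1 animal. Whether depth limited R in pairs of 10 to 100 counts was not tested.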

Other observations

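Of the 14 head-to-head pairs past the threshold, 3 lay within 829076 bases of chromosome 1, between 139386217 and 140215293, 1 of them with a negative R. The stretch was singled out after its values were seen and is bounded by these pairs themselves, where 5.41% of all adjacent pairs passed. The next head-to-head pair to the left (139350397 and 139350918) had an R of 0.691 and an exact permutation adjusted p of 0.178, and did not pass. The pairs starting at 140128509 and 140214563 are 85501 bases apart, and the R values between their genes were 0.909, 0.814, 0.954 and 0.949. The left gene of the pair at 139386217 had R of 0.728 to 0.852 with those 4 genes, and its right gene had R of -0.822 to -0.741 with them. Animals 36764, 36772, 36798 and 36907 were the 4 highest for both genes at 140128509 and for both at 140214563.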
